A study of Mus musculus with 1627 samples.

Results

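Foxp3 and 4 genes of the Ikaros zinc finger family, Ikzf1, Ikzf2, Ikzf3 and Ikzf4, were followed through single regulatory T cells (Tregs) of injured muscle and of spleen. The members were the rows of these 5 gene symbols among 23725 genes of the count table. Each had at least 50 unique molecular identifiers (UMIs, the tags that mark single captured mRNA molecules) over all libraries, as did 7617 genes. Tregs had been sorted as DAPI-negative cells with T cell receptor beta, CD4 and GFP from male B6 Foxp3-Ires-Gfp mice aged 8 months, whose muscle had been injured with cardiotoxin, a muscle-damaging snake toxin, 4 days earlier. Of 1627 cells profiled with inDrops, a droplet method, 674 and 694 came from 2 libraries of muscle, numbered 1 and 2 here, and the other 15.9% from 1 spleen library. The muscle had been digested with collagenase and dispase and the spleen dissociated mechanically. The spleens came from injured animals too, so no group was free of injury, and the reporter by which the cells were sorted is carried by the Foxp3 gene itself.

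Since no animal is named, a tissue counted as 1 sample, and the tissues were compared without a test. All intervals are exact at the 95% level and hold counting error alone. UMIs of a gene gather in some cells, which such intervals leave out. The median cell held 1976 UMIs in muscle library 1 and 2488 in muscle library 2, against 3541 in spleen, over a range of 756 to 9628, and the median number of mapped reads per UMI was 19.6 and 35.6 in the muscle libraries against 42.7 in spleen. Cell barcodes were shared 11 times between the muscle libraries, 1 time between muscle library 1 and spleen, and 0 times between muscle library 2 and spleen.

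Foxp3 is a forkhead transcription factor that specifies and maintains Tregs. Ikaros family proteins bind DNA through zinc fingers and pair with one another, often recruiting chromatin repressors such as the NuRD complex. Ikzf1 (Ikaros) acts throughout lymphocyte development, Ikzf2 (Helios) is abundant in Tregs that arise in the thymus and steadies their identity, Ikzf3 (Aiolos) is best known from B cells and helper T cells, and Ikzf4 (Eos) is a partner of Foxp3 in gene silencing.

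On the GRCm38 assembly with the GENCODE M21 annotation, Foxp3 spans 7573644 to 7595245 of chromosome X on the plus strand. Ikzf1 spans 11685003 to 11772926 on the plus strand and Ikzf3 98464902 to 98546031 on the minus strand of chromosome 11. Ikzf2 spans 69531214 to 69687245 of chromosome 1 and Ikzf4 128630843 to 128645991 of chromosome 10, both on the minus strand. All are protein-coding, and the counts cover each gene as a whole. Strand handling is not given in the sources used here, so reads of overlapping genes on the other strand could not be told apart. Foxp3 overlaps Ppp1r3f at its start, Ccdc22 at its end and the transcript Gm36995 over its whole length in this way, and Flicr on its own strand. Ppp1r3f had 22 and 63 UMIs in muscle against 16 in spleen and Ccdc22 1 and 9 against 3, while Gm36995 and Flicr were not analysed here. On the other strand Ikzf1 overlaps Gm11999 and Gm12000, Ikzf2 overlaps Gm29114 at its end, and Ikzf4 overlaps Gm26876. On their own strand Ikzf2 overlaps Gm29112 and Gm28112, and Ikzf3 overlaps Gm25106. These transcripts were not analysed here either.

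A promoter window of Foxp3 is printed because the TGGGAA core of Ikaros binding sites lies in it. RefSeq windows on GRCm38.p6 reach from 250 bases before to 50 bases after a transcript start, and 2 of the 5 members, Foxp3 and Ikzf1, matched with 2 windows each. The first Foxp3 window is chrX:7579426-7579725 on the plus strand, with the match in capitals as it reads on that strand:
Foxp3 promoter: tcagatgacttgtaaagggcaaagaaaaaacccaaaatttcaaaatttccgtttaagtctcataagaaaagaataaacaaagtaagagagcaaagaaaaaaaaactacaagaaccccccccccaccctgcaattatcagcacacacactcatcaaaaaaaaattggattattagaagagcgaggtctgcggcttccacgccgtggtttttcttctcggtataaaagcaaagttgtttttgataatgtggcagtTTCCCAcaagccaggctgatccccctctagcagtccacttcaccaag
Searched on both strands, TGGGAA occurred in this window and in none of the other 3, and 25.6% of 32851 windows of the same length held it. TGTGGT, the core of Runx sites, was held by 16.8% of all windows and TGTTTAC, a forkhead motif, by 3.65%, and neither was found in the 4 windows. A match is a description of letters, and no binding was measured.

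Foxp3 stood at a similar level in both muscle libraries and at a lower one in spleen. It gave 850 UMIs in muscle library 1 and 1057 in muscle library 2. As counts scaled to a common library total (CPM), its level was 554 (exact Poisson interval 518 to 593) and 552 (519 to 586) in muscle, against 368.4 (331.4 to 408) in spleen. The interval of each muscle library lay above that of spleen, with folds of 1.505 (1.33 to 1.71) and 1.497 (1.33 to 1.69). The fold of muscle library 2 over muscle library 1 was 0.99 (0.91 to 1.09). A sum over cells cannot tell fewer expressing cells from less RNA per cell.

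**Figure D1:**
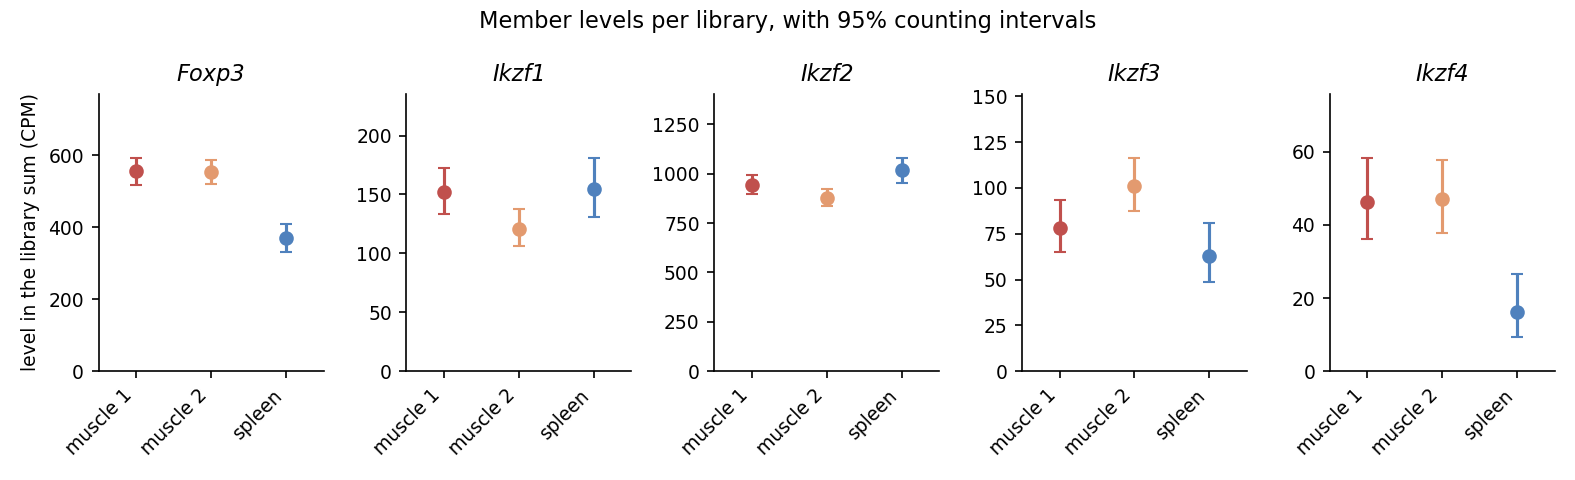
Level of each member in the library sum (CPM, y axis from 0, own scale per gene) in muscle library 1, muscle library 2 and the spleen library, with exact Poisson 95% intervals. Foxp3 and Ikzf4 lie above spleen in both muscle libraries, with intervals that do not overlap, and Ikzf2 is the member with the highest level in each library.

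Ikzf4 was the member with the largest difference between tissues and the scarcest one. Its UMIs numbered 71 in muscle library 1 and 90 in muscle library 2, against 16 in spleen, or 46.3 (36.2 to 58.4) and 46.96 (37.8 to 57.7) CPM against 16.3 (9.31 to 26.4) CPM. The folds over spleen were 2.84 (1.64 to 5.24) and 2.88 (1.68 to 5.26), and the muscle libraries stood at 1.01-fold (0.73 to 1.40) of each other. These UMIs came from 41 cells in each muscle library and from 10 spleen cells. As shares of cells at their own depth, 6.08% (exact binomial 4.40 to 8.16) and 5.91% (4.27 to 7.93) of muscle cells held an Ikzf4 UMI, against 3.86% (1.87 to 6.99) of spleen cells, and these intervals overlap.

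Ikzf2 made up most of the family's UMIs in every library. It gave 1446 UMIs in muscle library 1 and 1685 in muscle library 2, against 999 in spleen, or 943 and 879 CPM against 1017 CPM. The folds were 0.93 (0.86 to 1.01) and 0.86 (0.80 to 0.94), so the interval of muscle library 1 included equal levels and that of muscle library 2 did not. Of all UMIs of Ikzf1 to Ikzf5, Ikzf2 took 74.7% and 75.1% in muscle against 79.4% in spleen.

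Ikzf1 and Ikzf3 differed between the muscle libraries about as much as between tissues. Ikzf1 stood at 151.96 CPM in muscle library 1 and 121.1 CPM in muscle library 2, against 154.7 CPM in spleen. Its folds were 0.98 (0.80 to 1.21) and 0.78 (0.64 to 0.97), and muscle library 2 stood at 0.80-fold (0.66 to 0.96) of muscle library 1. Ikzf3 stood at 78.3 and 101.2 CPM in muscle against 63.1 CPM in spleen, where it gave 62 UMIs. Its folds were 1.24 (0.91 to 1.71) and 1.60 (1.20 to 2.17), and muscle library 2 stood at 1.29-fold (1.02 to 1.64) of muscle library 1. Thinned to 1000 UMIs, a single draw, the mean log2 fold of Ikzf3 was -0.16 and that of Ikzf1 was 0.040. For Ikzf3 this is the opposite sign of its 0.50 over all UMIs. That draw was high in spleen, with Ikzf3 in 6.95% of cells against 4.13% expected over all draws. With equal weight per cell the Ikzf3 value was 0.65, and it was positive under every alternative other than thinning. For Ikzf1 the groups were thus close to the spread within muscle. For Ikzf3 the sign changed only in the single thinned draw, and the size of its fold differed between the muscle libraries. Ikzf5 (Pegasus), a more distant family gene outside the 5 members, gave 67 and 43 UMIs in muscle against 29 in spleen, with folds on either side of 1 at 1.48 (0.94 to 2.37) and 0.76 (0.46 to 1.26).

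Inside each library the order of levels was Ikzf2, Foxp3, Ikzf1, Ikzf3 and Ikzf4. InDrops primes at the poly(A) tail and tags a molecule once, so levels of different genes were set side by side without scaling to length, though capture may differ between genes. Neighbours in that order had non-overlapping intervals in each library, except Ikzf1 and Ikzf3 in muscle library 2, whose intervals overlapped at 105.98 to 137.7 and 87.5 to 116.5 CPM.

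Only Ikzf4 among the 5 members passed a rule of size, at least 2-fold in the same direction in both muscle libraries. By this rule 569 of the 7617 genes were higher in muscle, which is 7.47%, and 3.45% were lower. Of the members 1 was higher, 0 were lower and 4 were neither, and with 5 members these counts say little against that background. The mean log2 fold over the muscle libraries was 1.52 for Ikzf4, 0.59 for Foxp3, 0.50 for Ikzf3, -0.16 for Ikzf2 and -0.19 for Ikzf1, against a median of 0.051 over all 7617 genes. Ikzf4 lay at percentile 95.9 of those genes, Foxp3 at 78.8, Ikzf3 at 74.8, Ikzf2 at 36.5 and Ikzf1 at 34.8. Leaving ribosomal protein genes out of the library totals moved the median of all genes to -0.092 and the split to 439 higher and 394 lower genes. Ikzf4 remained past 2-fold with that scaling at a mean log2 fold of 1.38, and Foxp3 stood at 0.44.

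**Figure D2:**
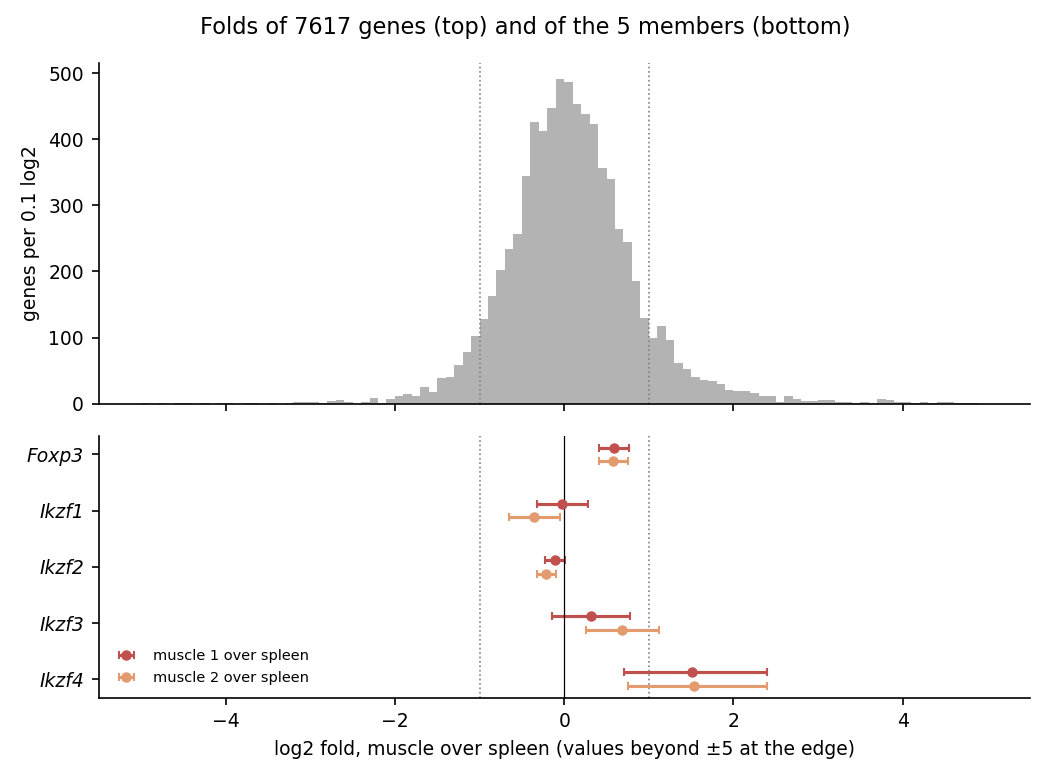
Top, histogram of the mean log2 fold of muscle over spleen for 7617 genes with at least 50 UMIs; bottom, log2 fold of each member for muscle library 1 and muscle library 2 over spleen with exact 95% counting intervals. Dotted lines mark 2-fold, and only Ikzf4 lies past one of them in both muscle libraries.

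Foxp3 was not seen in every sorted cell. At least 1 Foxp3 UMI was found in 56.5% of the cells of muscle library 1 and 56.1% of those of muscle library 2, against 47.1% of spleen cells, although spleen cells were deeper. When each cell was thinned to 1000 UMIs, which left out 26 and 7 shallower muscle cells and 0 spleen cells, the shares were 37.8% (34.1 to 41.7) and 35.7% (32.1 to 39.4) in muscle against 20.5% (15.7 to 25.9) in spleen. That spleen value was a low draw: the share expected over all draws, computed after seeing the data, was 37.5% and 35.9% in muscle against 24.3% in spleen. The ratio of expected shares, muscle over spleen, was 1.54 and 1.48 for Foxp3. Over 488 genes whose mean log2 fold was within 0.1 of 0, the same ratio had a median of 1.11 (5th to 95th percentile 0.81 to 1.41) and 1.04 (0.83 to 1.32). These genes were picked by their folds in the same data and not by abundance, and the ratio largely follows the fold. They show how far the ratio strays without a fold and are no test of Foxp3.

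The same thinning gave Ikzf2 in 45.7% and 43.8% of muscle cells against 41.3% of spleen cells. Ikzf4 was held by 3.40% (2.14 to 5.10) and 3.35% (2.13 to 4.98) of thinned muscle cells against 0.77% (0.09 to 2.76) of spleen cells, where 2 cells remained, and its expected shares were 3.61% and 3.21% against 1.43%. For Ikzf3 the draw and the expectation parted in spleen. The drawn shares were 6.79% and 6.84% against 6.95%, and the expected ones 6.84% and 6.93% against 4.13%. Its ratio of expected shares was 1.66 and 1.68, which largely restates its fold over all UMIs. The ratio was 2.53 and 2.25 for Ikzf4, 1.14 and 0.89 for Ikzf1, and 1.09 and 0.99 for Ikzf2. All cells had been sorted for the reporter, so no cell type without Foxp3 was at hand to set a background for its share. Genes of cells that the sort should remove gave UMIs in each library. Lyz2, an abundant macrophage gene, gave 3 and 6 UMIs in muscle against 0 in spleen, and C1qa, a complement gene of macrophages, 0 and 2 against 18. Cd79b, a B cell receptor subunit, gave 20 and 22 against 13.

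At their own depth, muscle cells held fewer UMIs per positive cell than the deeper spleen cells for Foxp3, Ikzf1 and Ikzf2. Foxp3 averaged 2.23 and 2.72 UMIs per positive muscle cell against 2.97 per positive spleen cell, with up to 15 and 11 in a muscle cell against 17 in a spleen cell. Ikzf2 averaged 3.47 and 4.14 against 6.17, and Ikzf1 1.59 and 1.72 against 2.58. Ikzf4 was the exception with 1.73 and 2.20 in muscle against 1.60 in spleen, and Ikzf3 had 1.46 and 2.16 against 2.14. Thinned to 1000 UMIs the Foxp3 values were 1.51 and 1.62 in muscle against 1.45 in spleen, the opposite order. The spleen value rests on the low draw named above, with 77 UMIs in 53 cells, so this order is not settled. Those of Ikzf1 were 1.33 and 1.20 against 1.26, with no common direction, and those of Ikzf2 2.14 and 1.90 against 2.40.

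**Figure D3:**
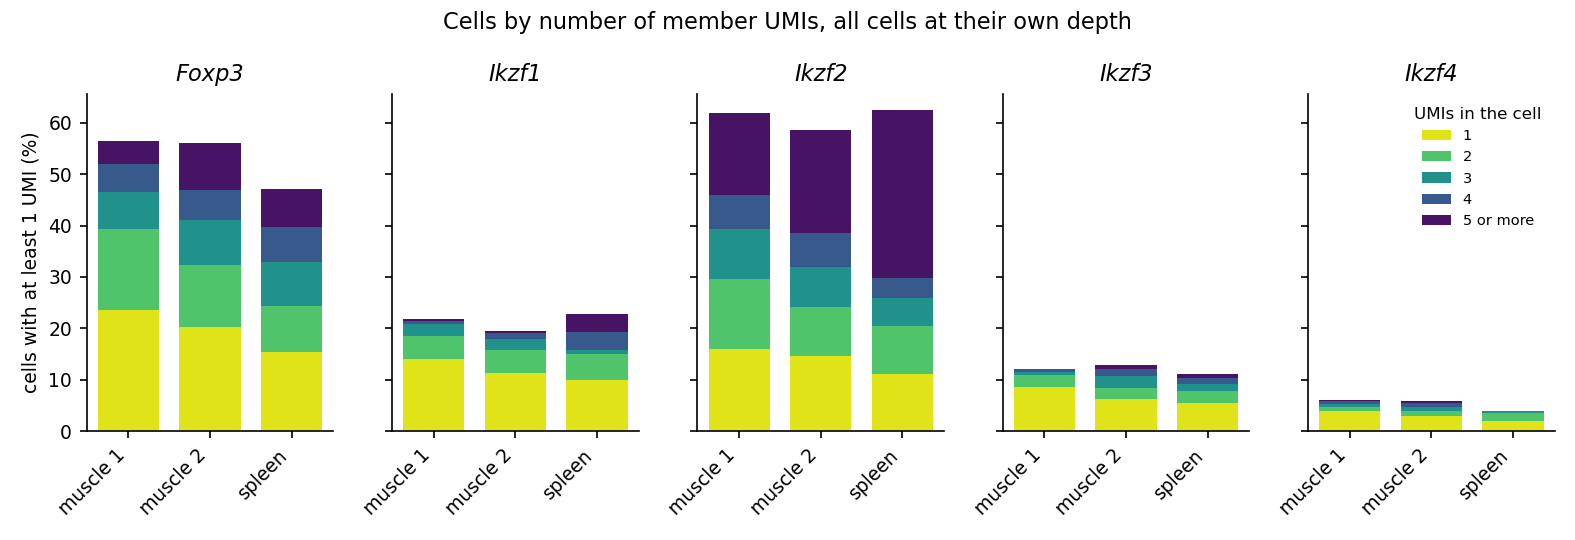
Percent of cells (y axis) that held 1, 2, 3, 4 or 5 and more UMIs of each member in muscle library 1, muscle library 2 and spleen, all cells at their own depth. Ikzf2-positive shares are alike at 61.9% and 58.6% of muscle cells and 62.5% of spleen cells, while cells with 5 or more Ikzf2 UMIs make up 15.9% and 20.03% of muscle cells against 32.8% of spleen cells.

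Ikzf2 was thus detected in like shares of cells in both tissues but differed in its distribution. No Ikzf2 UMI was seen in 38.1% and 41.4% of muscle cells against 37.5% of spleen cells, and 5 or more in 15.9% and 20.03% against 32.8%. Depth per cell moves with this: spleen cells held more UMIs and more reads per UMI, and their part in it was not tested. Genes whose library total was within 10% of that of Ikzf2 had a median of 2.98 and 3.57 UMIs per positive cell in muscle against 5.51 in spleen, so the larger spleen value was shared by genes of like abundance. Of these genes, 4 of 34 in muscle library 1 and 5 of 34 in muscle library 2, against 3 of 18 in spleen, had a value at or above that of Ikzf2. Foxp3 lay on the other side of such genes in all libraries. The median of genes of its abundance was 2.504 and 3.05 in muscle against 3.40 in spleen, and 54 of 68 and 52 of 70 in muscle, against 67 of 92 in spleen, were at or above Foxp3.

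**Figure D4:**
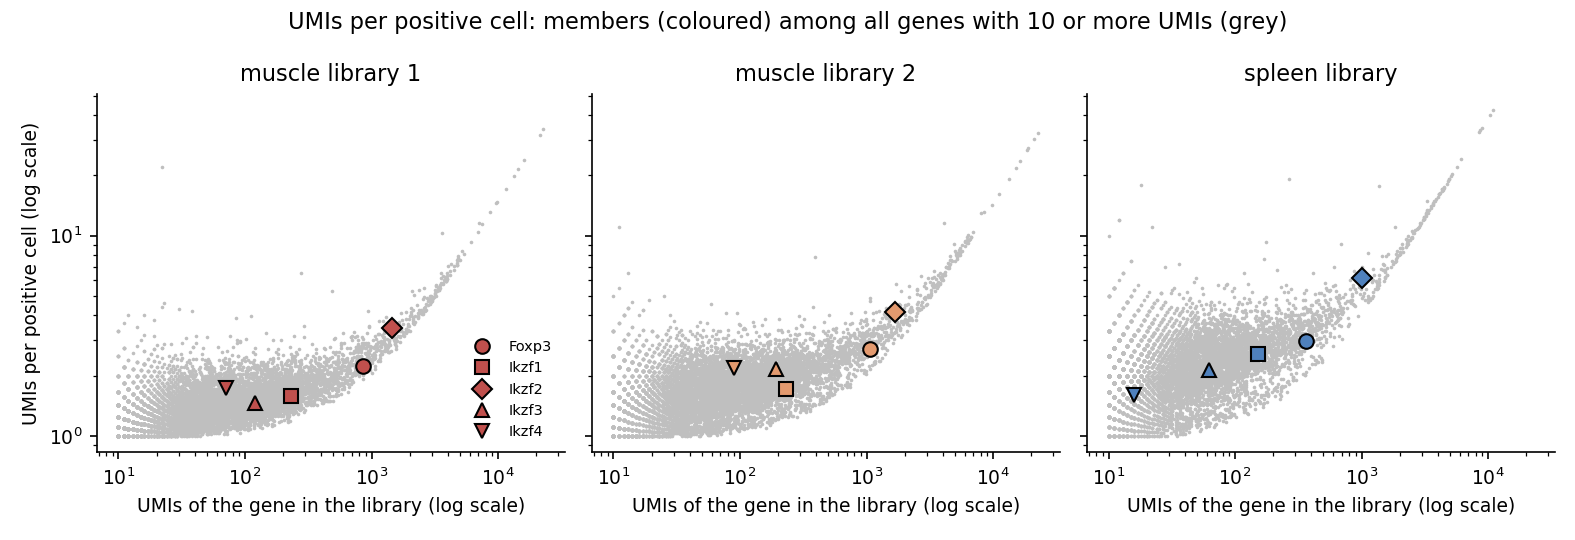
UMIs per positive cell (y axis, log scale) against the UMIs of a gene in the library (x axis, log scale), for all genes with at least 10 UMIs in grey and the 5 members in colour, in muscle library 1, muscle library 2 and the spleen library. Ikzf2 lies near the upper side of the cloud at its abundance and Foxp3 near the lower side. The cloud is higher in spleen, where a total spreads over fewer cells.

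Once depth was made equal, Foxp3 and Ikzf2 were detected together little more often than their separate shares give. In thinned cells Foxp3 and Ikzf2 were seen together in 19.4% and 16.2% of muscle cells against 9.27% of spleen cells. That is 1.13 and 1.03 times the number given by the product of the separate shares in muscle, against 1.10 times in spleen. Cells at their own depth with none of the 5 members made up 12.8% and 14.99% in muscle against 17.4% in spleen. Across cells the Pearson correlation of Foxp3 with Ikzf2, on log counts per 10000, was 0.051 and 0.040 in muscle against 0.11 in spleen. These values are too weak to be read as a relation, though their mean of 0.068 lay at percentile 97.8 of the genes compared with Foxp3.

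In spleen, the Foxp3 level was higher in cells with an Ikzf2 UMI than in cells without one, and in muscle the levels were close. Foxp3 stood at 564 and 547 CPM in muscle cells with Ikzf2 and at 533 and 560 CPM in muscle cells without it. In spleen the values were 413 CPM with and 273.7 CPM without Ikzf2, a ratio of 1.51 (1.18 to 1.95), while the muscle ratios were 1.06 (0.91 to 1.23) and 0.98 (0.86 to 1.11). The cells with Ikzf2 were deeper, with medians of 2107 and 2635 UMIs in muscle and 3815 in spleen, against 1764, 2102 and 3028 without it. After thinning to 1000 UMIs the log2 ratio was 0.59 and 0.13 in muscle and 0.091 in spleen, though the spleen ratio of 1.07 (0.66 to 1.71) at that depth includes both equal levels and the value at full depth. Whether tissues differ in this ratio was not tested.

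Ikzf2 stood higher in cells with Klrg1, an inhibitory receptor of effector Tregs, in each library. In muscle it reached 1038 and 1015 CPM in Klrg1-positive cells and 860 and 744 CPM in Klrg1-negative cells, ratios of 1.21 (1.09 to 1.34) and 1.37 (1.24 to 1.51). In spleen, where 32 cells held a Klrg1 UMI, it reached 1286 CPM with and 969 CPM without, a ratio of 1.33 (1.13 to 1.56). Thinned to 1000 UMIs the ratios were 1.17 (0.98 to 1.38) and 1.55 (1.31 to 1.83) in muscle and 1.25 (0.82 to 1.86) in spleen, the same direction, though in muscle library 1 and in spleen the interval includes equal levels. Foxp3 gave ratios of 0.86 (0.75 to 0.99) and 1.02 (0.90 to 1.152) in muscle and 1.25 (0.94 to 1.64) in spleen, with no common direction.

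By Il1rl1, the interleukin 33 receptor of tissue Tregs, the Ikzf2 ratios were 1.08 (0.96 to 1.22) and 1.16 (1.04 to 1.29) in muscle and 1.19 (0.90 to 1.55) in spleen, where 11 cells held an Il1rl1 UMI, and the Foxp3 ratios were 0.997 and 0.993 in muscle and 1.17 in spleen.

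**Figure D5:**
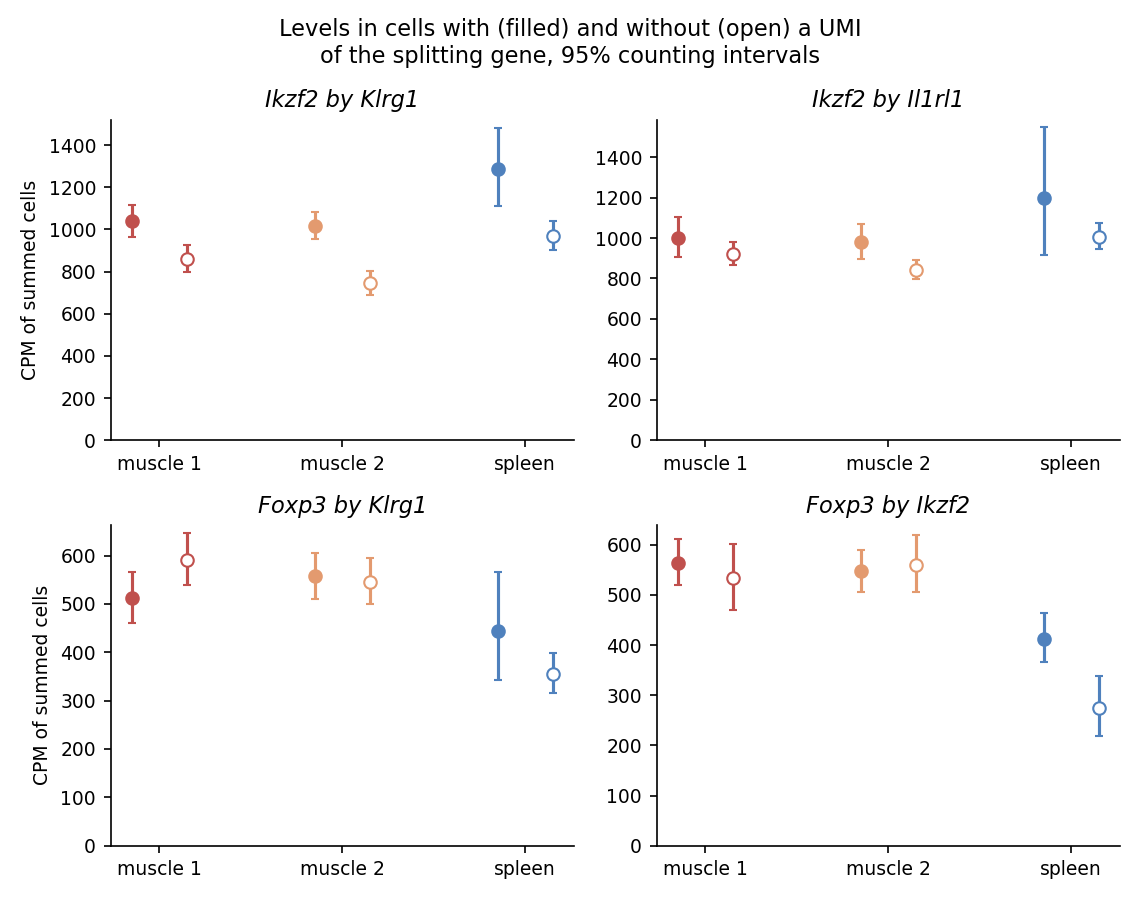
Level (CPM of summed cells, y axis from 0) of Ikzf2 and Foxp3 in cells with (filled) and without (open) a UMI of the splitting gene, in muscle library 1, muscle library 2 and spleen, with exact Poisson 95% intervals, at unthinned depth. Ikzf2 is higher with Klrg1 in all 3 libraries, at 1038 and 1015 CPM in muscle and 1286 CPM in spleen.

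The summed level of 18 Treg identity genes was close in cells with and without a Foxp3 UMI, while the ratios of single genes varied more. It was 12649 and 11919 CPM in muscle cells with Foxp3 and 11938 and 11072 CPM in muscle cells without it. In spleen it was 6399 CPM with and 6102 CPM without, and the ratios were 1.06 (1.03 to 1.09), 1.08 (1.05 to 1.11) and 1.05 (0.997 to 1.10). Il2, which Foxp3 represses, had 0 UMIs in every library. In muscle, Il10, a suppressive cytokine, had ratios of 0.50 (0.38 to 0.66) and 0.73 (0.56 to 0.94), and in spleen 1.70 (1.07 to 2.75). The shares of cells with an Il10 UMI were close, at 11.55% with and 12.97% without Foxp3 in muscle library 1. They were 12.08% and 10.16% in muscle library 2 and 5.74% and 5.84% in spleen. The Il10 ratios thus turn on how many UMIs a small share of cells held. The intervals leave such gathering out, so they do not settle a difference in Il10. Tnfrsf9, the costimulatory receptor 4-1BB, had ratios of 1.53 (1.39 to 1.69) and 1.05 (0.96 to 1.15) in muscle and 1.25 (1.03 to 1.53) in spleen. For Entpd1 they were 1.14 (0.75 to 1.76) and 2.10 (1.31 to 3.47) in muscle and 4.64 (0.99 to 43.6) in spleen, where 12 UMIs were seen. Cells with Foxp3 were deeper, with medians of 2195 and 2664 UMIs in muscle and 3874.5 in spleen, against 1692, 2249 and 3191 without it, and the part of depth in these ratios was not tested.

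Genes tied to Foxp3 and Ikaros function moved unevenly between tissues. Of 17 measured Treg identity genes, 8 were higher in muscle, 3 lower and 6 neither, with a median log2 fold of 1.08. Entpd1, which makes the ectoenzyme CD39, stood at 68.5 and 53.2 CPM against 12.2 CPM. Lrrc32, which displays latent TGF-beta, stood at 43.7 and 62.6 CPM against 208.6 CPM, and the receptor gene Gpr83 at 2.61 and 3.65 CPM against 59.03 CPM. Of 11 genes listed here as held low by Foxp3, a list that also holds genes of the resting state, 5 were measured. Of these, 4 were lower, 0 higher and 1 neither, with a median of -3.04. Those named by size were Tcf7 at 8.48 and 2.61 CPM against 128.2 CPM, Bach2 at 7.83 and 8.35 CPM against 74.3 CPM, and Id3 at 7.17 and 14.6 CPM against 84.5 CPM, transcription factors of resting T cells. A list of resting Treg markers shares genes with this one, Tcf7 and Bach2 among them, and of its 5 measured genes 4 were lower. The part of Foxp3 and of the resting state in these levels was not tested. Of 6 measured genes of a tissue and effector list, 6 were higher in muscle. Over all measured genes 7.47% were higher and 3.45% lower. These lists were chosen with earlier results of these data known, so their counts are descriptions and no support for a difference.

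Few genes of the machinery around the members passed the rule, as among all measured genes. Of 18 measured regulators that act on the Foxp3 locus, 2 were higher, 1 lower and 15 neither, with a median log2 fold of -0.15. Nr4a1, a nuclear receptor induced by T cell receptor signals, stood at 1709 and 1602 CPM against 659 CPM, and Runx3, a Runt factor, at 116.1 and 132.01 CPM against 50.9 CPM. Rel, the NF-kB subunit c-Rel, stood at 32.6 and 36.003 CPM against 74.3 CPM. Of 16 measured partners and modifiers of the Foxp3 protein, 1 was higher, the ubiquitin ligase gene Rnf31 at 27.4 and 20.3 CPM against 8.14 CPM, and 0 were lower. Of 15 measured subunits of NuRD and other corepressors bound by Ikaros proteins, 0 passed the rule either way, with a median of 0.28. Of 5 subunits of the cereblon ubiquitin ligase, which degrades Ikaros proteins when bound by thalidomide analogs, 0 passed the rule, with a median of -0.15. These lists are read against 7.47% of all measured genes higher and 3.45% lower, and counts this small say little against those shares.

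Markers of other cell types were measured in every library, and 27.003% and 36.7% of muscle cells against 45.2% of spleen cells held a UMI of at least 1 of them, conventional CD4 markers included. The summed level was 13.7 and 12.5 CPM in muscle against 13.2 CPM in spleen for 6 B cell genes, and 15.7 and 21.9 CPM against 52.9 CPM for 10 myeloid genes. It was 26.1 and 44.4 CPM against 28.5 CPM for 10 muscle and fibroblast genes, 78.3 and 81.4 CPM against 104.8 CPM for 7 CD8 and NK cell genes, and 82.2 and 88.2 CPM against 132.3 CPM for 7 endothelial, erythroid and platelet genes. Of the B cell list 4 and 3 genes were at 0 in muscle against 5 in spleen, and of the myeloid list 6 and 3 against 5. Pecam1, the adhesion molecule CD31, which leukocytes also carry, gave 62.6 and 58.4 CPM against 116.02 CPM and so most of its list's sum. Cd8b1, a CD8 chain, gave 37.8 and 65.7 CPM against 52.9 CPM. The part of such transcripts in the members' levels was not tested beyond leaving out the cells that held them. In cells with no UMI of any of these 42 genes, Foxp3 stood at 547 and 578 CPM in muscle against 416 CPM in spleen, and Ikzf4 at 55.4 and 51.1 CPM against 14.1 CPM. The T cell markers gave 0 of 7 genes past the rule.

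No gene followed a member closely from cell to cell. Likeness was Pearson correlation of log counts per 10000, averaged over the 3 libraries, among 3122 genes with at least 50 UMIs in each. For Ikzf2 the most alike genes were Tnfrsf4, the costimulatory receptor OX40, at 0.20, Cd83 at 0.18 and Cd74, the invariant chain of MHC class II, at 0.16. For Foxp3 they were Nr4a1 at 0.11, Gadd45b at 0.10 and Zfp36 at 0.10, and for Ikzf1 Tnik at 0.12, Surf4 at 0.11 and Phb at 0.10. Ikzf3 was most alike to Lgmn, Slc25a51 and Syf2 at 0.12 each, and Ikzf4 to Ccdc53 at 0.12, Etfb at 0.11 and Mmd at 0.11. Points within a library share its depth, and correlations of this size in sparse counts are no finding.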

How the data were processed

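The deposited table holds UMI counts, not normalized, for each gene in each cell. Per the submitters' processing notes TopHat2, SAMtools and the mm10 build were used, with no versions given. How UMIs were collapsed, how cells were filtered, and which annotation and strand rule applied is nowhere given in the sources used here. Cells were assigned to 3 libraries by the labels (674 and 694 of muscle, 259 of spleen), and all 1627 were kept; no doublet caller was run, as the sort holds 1 cell type. Sums over the cells of a library were scaled to CPM, where 1 UMI was worth 0.65 and 0.52 CPM in muscle and 1.02 CPM in spleen. Levels carry exact Poisson, shares exact binomial (Clopper-Pearson) and folds exact conditional binomial 95% intervals.

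A gene was called higher or lower when both muscle libraries passed 2-fold in 1 direction, among genes with at least 50 UMIs; this is no test. The code that applies it was checked on simulated counts with known folds. Cells were thinned without replacement to 1000 UMIs with seed 1. Named are the 5 members, Ikzf5, up to 3 genes per list with the largest mean log2 fold among those called, and the 3 genes most alike to each member. Ccdc22, Ppp1r3f, Cd79b, C1qa, Lyz2, Pecam1, Cd8b1, Il10, Tnfrsf9, Il7r and Il2 were named after their values were seen. The members and lists were chosen with earlier results of these data known. A split of cells by resting markers is not reported here. Promoter windows come from RefSeq. Alternatives covered scaling, UMI minimum, fold, cell weight, thinning, doubtful cells and each muscle library alone; edgeR and DESeq2 supplied scaling factors only. Tools were R 4.3.3, edgeR 4.0.16, DESeq2 1.42.0 and Python 3.11.15 with scipy 1.17.1, numpy 2.4.6, matplotlib 3.10.9 and pandas 2.3.3.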

Additional observations from a re-analysis of the deposited data

How the results depend on the processing

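With TMM factors, DESeq2 size factors, equal weight per cell, without cells above 3 times the median depth and without cells whose barcode occurs in 2 libraries, the mean log2 fold of each member stayed within its counting interval and kept its sign. With ribosomal protein genes left out of the totals Ikzf2 moved to -0.30. Thinning to 1000 UMIs, a single draw from fewer counts, moved Foxp3 to 0.95, Ikzf3 to -0.16 and Ikzf4 to 2.76, while Ikzf1 at 0.040 changed sign within its interval. Ikzf4 was past 2-fold under each alternative run and the other members under none. As a share of genes over the UMI minimum, genes higher in muscle made up 9.19% with at least 10 UMIs, 5.83% with at least 200, 6.83% with no minimum, 15.9% at 1.5-fold and 2.93% at 3-fold. Lower genes made up 5.64%, 1.82%, 5.14%, 10.8% and 0.95% under the same settings, and 6.89% to 6.96% without 1 muscle library. Each of these settings moved the count of genes by over 1.5 times. The share of Foxp3-positive cells depends on depth: it was 56.5% and 56.1% in muscle against 47.1% in spleen unthinned, 29.4% and 30.7% in muscle against 20.1% at 750 UMIs, and 50.3% and 45.7% against 31.3% at 1500 UMIs. The log2 ratio of Foxp3 in cells with over without Ikzf2 moved to 0.59 in muscle library 1 and 0.091 in spleen when thinned; the cause was not tested. UMIs per positive cell fell outside their counting intervals in 25 of 30 thinned values, since fewer UMIs are drawn per cell. No paired analysis was possible because the labels name no animal, so muscle and spleen of a mouse could not be matched. Depth limits Ikzf4 most, at 16 spleen UMIs in 10 cells, and the spread within spleen is not known.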

Other observations

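Cells with a UMI of Mki67 or Top2a, genes of dividing cells, numbered 67 and 54 in muscle against 18 in spleen. Foxp3 stood at 513 and 431 CPM in these muscle cells and at 561 and 565 CPM in the other muscle cells, ratios of 0.92 (0.74 to 1.13) and 0.76 (0.60 to 0.95). In spleen it stood at 519 CPM in cells with and 353.1 CPM in cells without such a UMI, a ratio of 1.47 (1.06 to 2.001). Thinned to 1000 UMIs, the log2 ratio was -0.046 and -0.0062 in muscle and -0.26 in spleen, but the spleen value rests on 8 cells with 2 Foxp3 UMIs, a ratio of 0.84 (0.099 to 3.13) that includes the one at full depth.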
